A study of Caenorhabditis elegans with 2 samples.

Results

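The genes described here encode the factors that drive the ribosome through initiation and elongation, and the aminoacyl-tRNA synthetases that load amino acids onto tRNAs. Members were the nuclear protein-coding genes of Caenorhabditis elegans whose symbol begins with eif-, eef-, ife- or iff- (38 translation factor genes), or with a 1-letter amino acid code followed by ars- (32 synthetase genes), 70 of 19973 such genes in all. The question was where DNA recovered with ROW-1, a protein that RefSeq names for its C2H2-type zinc finger domain, lay at their promoters. The series held 1 group of 2 biological replicates. Both were whole L4 hermaphrodites, in their final larval stage 48 h after growth was synchronized from starved L1 larvae, of strain OP510 with the genotype unc-119(tm4063) III; wgIs510. All animals carried row-1 (F37D6.2) tagged with GFP-FLAG at its C terminus, and an antibody against GFP recovered the chromatin, which had been sheared by sonication. Whether an untagged row-1 was also present was not examined here. No other tagged strain and no control library was used here, so recovery with the tag in general was not told apart from recovery with ROW-1. There is no contrast of conditions and no test in what follows: counts stand beside the same share over all nuclear protein-coding genes. No tissue marker can be read from a peak list of whole animals, so the stage and tissue labels were not checked.

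Initiation begins when the small ribosomal subunit, with the complexes eIF3 and eIF2 and small factors such as eIF1, is brought to the capped mRNA, which eIF4E binds. Elongation factor eEF1A then delivers aminoacyl-tRNAs, eEF1B recharges eEF1A with GTP, eEF2 moves the ribosome along, and eIF5A, despite its name, assists peptide bond formation. The synthetases supply all of this, each enzyme or enzyme complex serving in general 1 amino acid, in the cytoplasm or in mitochondria. In C. elegans many mRNAs receive a spliced leader, so an annotated 5' end can be a splice site downstream of the place where transcription starts. Some genes are also transcribed together in operons from the promoter of the first gene.

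Peaks came from 2 lists on assembly ce11 (WBcel235), and each replicate had a call list of its own, of 28339 calls in replicate 1 and 25405 in replicate 2. The optimal list held the 1574 peaks past the authors' threshold of the irreproducible discovery rate (IDR), and the pooled list held 30000 calls, weak ones included. Of the optimal peaks, 1571 overlapped a call in both replicate lists, so not every one was called in each replicate. The optimal peaks were the 1574 strongest pooled calls, so each has the same signal in both lists. Signals are the authors' values, on a scale that is not given. Levels are ranked only within a list, and ratios between the replicate lists are given as a description. A gene was counted where a peak's summit fell between 500 bp before and 200 bp after any of its annotated 5' ends, called its promoter here. Read depth is unknown. Distances from a summit to a 5' end are negative upstream. Positions count from 1.

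The sequences at 6 of the 13 member summits are shown first. iff-2 had the strongest member peak, eef-1A.2 and eef-1A.1 are the 2 eEF1A genes, and eef-1G is a further elongation factor gene with a summit close to its 5' end. ife-4, which has searched motifs on and near its summit, and ears-2, the synthetase gene with the strongest peak, were added after the values were seen. Other strong peaks, those of eif-3.C and eif-3.B among them, are not shown. Each runs 5' to 3' on the strand of its gene, over at most 75 bp on each side of the summit, and stops where a coding gene begins. Capitals mark the motifs searched, as given further down.
iff-2: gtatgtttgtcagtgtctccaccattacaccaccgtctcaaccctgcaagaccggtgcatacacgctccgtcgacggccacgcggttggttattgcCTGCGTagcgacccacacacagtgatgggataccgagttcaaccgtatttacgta
eef-1A.2: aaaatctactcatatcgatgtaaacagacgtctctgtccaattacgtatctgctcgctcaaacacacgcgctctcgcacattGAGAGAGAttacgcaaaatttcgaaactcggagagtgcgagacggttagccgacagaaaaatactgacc
eef-1G: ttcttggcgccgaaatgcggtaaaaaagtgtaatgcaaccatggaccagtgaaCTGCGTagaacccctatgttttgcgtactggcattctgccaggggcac
eef-1A.1: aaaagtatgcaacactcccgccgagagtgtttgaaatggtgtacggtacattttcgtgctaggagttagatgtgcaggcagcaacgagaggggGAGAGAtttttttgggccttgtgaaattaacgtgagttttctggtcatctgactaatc
ife-4: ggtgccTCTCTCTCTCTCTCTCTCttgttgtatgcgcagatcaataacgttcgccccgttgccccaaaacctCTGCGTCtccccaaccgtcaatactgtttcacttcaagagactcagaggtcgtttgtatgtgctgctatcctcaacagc
ears-2: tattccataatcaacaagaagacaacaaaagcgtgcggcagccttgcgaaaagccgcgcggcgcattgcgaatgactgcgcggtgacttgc
They were read from the RefSeq sequence of WBcel235: chrII:8561371-8561521 (minus strand) for iff-2, chrX:7823175-7823325 (plus) for eef-1A.2, chrV:10965618-10965718 (plus) for eef-1G, chrIII:6972018-6972168 (minus) for eef-1A.1, chrX:1103841-1103991 (plus) for ife-4 and chrIV:390469-390559 (minus) for ears-2. The summit is base 76 of each, and base 71 of ears-2. The ears-2 stretch is the whole interval between ears-2 and its divergent neighbour.

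Translation factor genes carried an optimal peak at their promoter in 11 of 38 cases (28.9%) and synthetase genes in 2 of 32 (6.25%), beside 4.58% of all nuclear protein-coding genes. The synthetase share was thus near the share of all genes. By chromosome the called factor genes were 4 of 12 on I, 2 of 11 on II, 2 of 6 on III, none of 2 on IV, 1 of 4 on V and 2 of 3 on X, while both called synthetase genes were among the 8 on IV. Of all coding genes, 6.43% were called on I, 4.204% on II, 6.67% on III, 4.42% on IV, 2.78% on V and 4.54% on X. The factor genes with a peak fell into the elongation factors (5 of 6), eIF3 (4 of 11), eIF5A (1 of 2) and the cap-binding eIF4E proteins (1 of 5). None of the 3 genes of eIF2, the 5 of its exchange factor eIF2B, the 2 of eIF1 and eIF1A, or the 4 further initiation factor genes had one. Of the 729 optimal peaks at coding promoters, the median signal was 114, with quartiles at 90.4 and 169. The 11 factor peaks had a median of 191, and 9 of them were above 114.

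**Figure D1:**
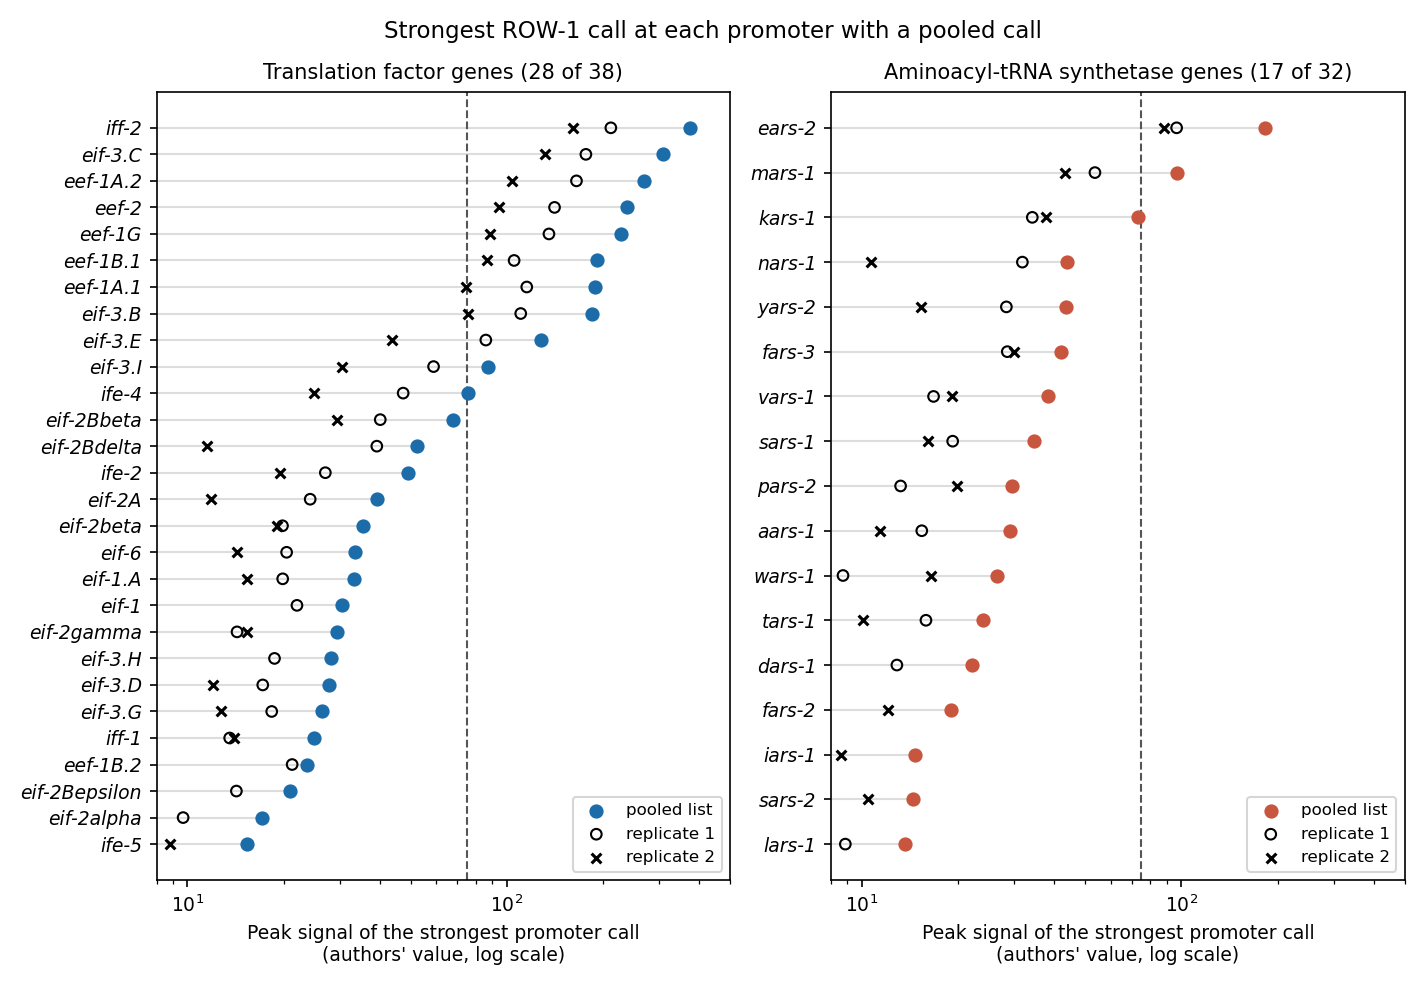
Signal of the strongest promoter call (authors' value, log scale) for the 28 translation factor genes and 17 synthetase genes with a pooled call. Filled points are the pooled list, open circles replicate 1 and crosses replicate 2, each list on its own scale, and the dashed line is the lowest optimal signal, 74.8. In the pooled list 11 factor genes and 2 synthetase genes lie to the right of the line, and kars-1 lies just to its left.

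Elongation factor genes had peaks of similar strength at all but 1 promoter. eef-1A.2 (chromosome X, 7823654 to 7825769), which encodes eEF1A, had a peak from 7823142 to 7823409 of signal 268, against 165 in replicate 1 and 104 in replicate 2. eef-2 (chromosome I, 9163531 to 9166952), which encodes the translocase eEF2, had 237, with 141 in replicate 1 and 94.6 in replicate 2. eef-1G (chromosome V, 10965719 to 10967922), for the gamma subunit of eEF1, had 227, with 135 in replicate 1 and 88.8 in replicate 2. These 3 ranked 147, 195 and 215 of 1574. eef-1B.1 (chromosome III, 7972382 to 7973386), for a nucleotide exchange subunit, had 191, with 105 in replicate 1 and 86.8 in replicate 2. eef-1A.1 (chromosome III, 6970026 to 6971712), the other eEF1A gene, had 189, with 115 in replicate 1 and 74.6 in replicate 2. All 5 peaks were therefore between ranks 147 and 316. The exception was eef-1B.2 (chromosome IV), annotated like eef-1B.1 as a beta or delta subunit gene. Its strongest pooled promoter call had a signal of 23.7 and rank 10812, with 21.3 in replicate 1 and no promoter call in replicate 2.

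The eEF1A genes differed from the other 3 in where the summit lay. The summits of eef-2, eef-1G and eef-1B.1 lay 0, -26 and 15 bp from the 5' end. Those of eef-1A.2 and eef-1A.1 lay at -404 and -381 bp. In a narrower window, 250 bp before to 100 bp after the 5' end, which counted 2.83% of all coding genes (19.2% with any pooled call), neither eEF1A gene was counted. The eef-1A.2 peak had no other coding promoter within reach, and the noncoding RNA gene R03G5.8, on the opposite strand, reached to 135 bp from its summit and so overlapped the edge of the peak. The eef-1A.1 summit was closer to other 5' ends than to that of eef-1A.1, at -160 bp from rfc-4, a replication factor C gene on the opposite strand, and at -8 bp from the microRNA gene cel-mir-5549. By nearest coding gene this peak went to rfc-4.

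eIF3 is the large scaffold complex of initiation, and 4 of its 11 genes named eif-3 had an optimal peak. The strongest was eif-3.C (chromosome I, 9976426 to 9979662), at 309, with 177 in replicate 1 and 132 in replicate 2. eif-3.B (chromosome II, 14795404 to 14798235) had 185, with 110 in replicate 1 and 75.4 in replicate 2. eif-3.E (chromosome I, 10640465 to 10642281) had 128, with 85.9 in replicate 1 and 43.5 in replicate 2. These 3 were all above the median of coding promoter peaks, 114. The weakest, eif-3.I (chromosome I, 2485861 to 2489787), had 87.1, with 58.9 in replicate 1 and 30.5 in replicate 2. At rank 1778 it was not among the 1574 strongest calls of replicate 2.

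A further 3 eIF3 genes had weak pooled calls: eif-3.H a signal of 28.2, eif-3.D 27.7 and eif-3.G 26.4, each beside a median of 27.1 for the strongest call of all 5828 coding genes with a pooled promoter call. The remaining 4 genes, eif-3.F, eif-3.J, eif-3.K and eif-3.L, had no pooled promoter call. Replicate 1 alone had weak promoter calls at eif-3.F (9.93, at 55 bp) and eif-3.K (8.80, at -144 bp). eif-3.J had a pooled call of 73.8 at -974 bp, outside the window and just below the optimal list, at rank 1605. In all 7 genes with a pooled promoter call, the summit of the strongest one lay in 1 range, from -247 to -193 bp. Over all coding genes with a pooled promoter call the quartiles of this distance were -289 and -24 bp. In that range fell 10.6%, and its limits were set by the eIF3 genes themselves. The range describes the pooled summits only. In replicate 1 the strongest promoter call lay outside it at eif-3.C (-248 bp), eif-3.B (-265), eif-3.H (-267), eif-3.D (-261) and eif-3.G (-269). It lay inside at eif-3.E (-214 bp) and eif-3.I (-215). In replicate 2 it lay outside at eif-3.B (-265 bp), eif-3.I (-252) and eif-3.G (-69), and inside at eif-3.C (-243), eif-3.D (-226) and eif-3.E (-225). eif-3.H had no promoter call there. A second, weaker pooled call at eif-3.I (17.0) lay at -29 bp. The gene of subunit A, egl-45, which the symbol rule leaves out, had a pooled call of 25.5 at -463 bp, outside this range.

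**Figure D2:**
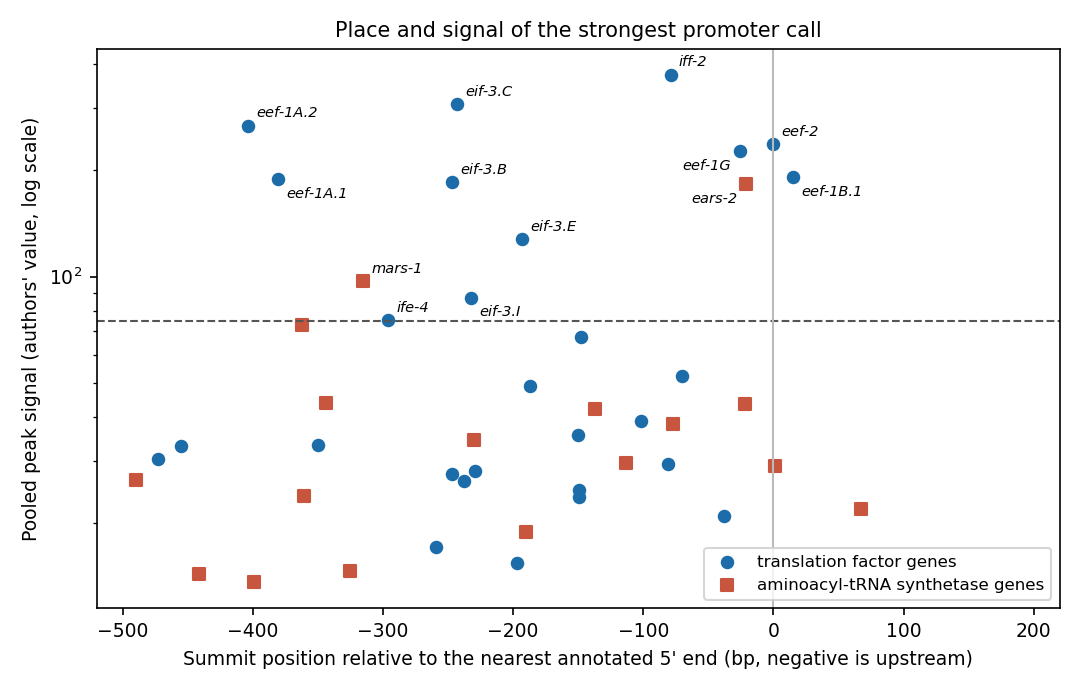
Summit position of the strongest pooled promoter call relative to the nearest annotated 5' end (bp, negative upstream) against its pooled signal (authors' value, log scale), for 28 translation factor genes (circles) and 17 synthetase genes (squares). The dashed line is the lowest optimal signal, 74.8. The eIF3 peaks sit between -247 and -193 bp, eef-2, eef-1G and eef-1B.1 within 26 bp of the 5' end, and the eEF1A genes at -404 and -381 bp.

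The strongest member peak belonged to iff-2 (chromosome II, 8559375 to 8561367), 1 of the 2 genes of eIF5A. Its signal was 374 (rank 75), with 211 in replicate 1 and 161 in replicate 2, and the summit lay at -79 bp with no other coding promoter in reach. A snoRNA gene inside iff-2, F54C9.12, lay outside the peak. The other eIF5A gene, iff-1 (chromosome III), had a pooled call of 24.8 at rank 9885. The 2 genes were thus far apart in the same list. Among the eIF4E genes, ife-4 (chromosome X, 1104212 to 1106251) had the weakest member peak, its signal being 75.3 (rank 1558), 47.3 in replicate 1 and 24.97 in replicate 2. ife-2 followed with a pooled call of 48.9 and ife-5 with 15.4, while ife-1 and ife-3 had no promoter call in any of the 4 lists.

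The genes of eIF2, which carries the initiator tRNA, and of eIF2B, which recharges it with GTP, stayed below the optimal list. eif-2Bbeta came closest, with a pooled signal of 67.6 (rank 1820) at -148 bp, 40.1 in replicate 1 and 29.4 in replicate 2. eif-2Bdelta had 52.3, with 39.1 in replicate 1 and 11.5 in replicate 2. The replicates thus differed more at eif-2Bdelta than at eif-2Bbeta. For eIF2 itself the pooled signals were 35.5 for eif-2beta, 29.4 for eif-2gamma and 17.1 for eif-2alpha. eif-2Bepsilon had 21.0, and eif-2Balpha and eif-2Bgamma had a promoter call only in replicate 1, of 18.9 and 9.61. eif-2Bgamma had an optimal peak of 98.2 beyond the window, at -756 bp. Among the remaining initiation factors the strongest pooled calls were 39.1 for eif-2A and 33.4 for eif-6, a factor that keeps the ribosomal subunits apart, then 33.2 for eif-1.A and 30.5 for eif-1. eif-2D and eif-4A3, a helicase gene of the exon junction complex, had no promoter call in any list.

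Of the 2 synthetase genes with an optimal peak, ears-2 was the stronger. RefSeq annotates ears-2 (chromosome IV, 388686 to 390468) as a mitochondrial glutamyl-tRNA synthetase. Its signal was 183 (rank 336), with 96.6 in replicate 1 and 87.9 in replicate 2. The ratio of replicate 1 to replicate 2, 1.10, was the lowest of the member peaks. Each list has its own scale, and the ranks in the replicate lists were 428 and 252. The summit lay at -21 bp from ears-2 and at -71 bp from uncp-18, in an interval of 91 bp between the divergent genes, so the peak cannot be given to one of them. mars-1 (chromosome IV, 11631941 to 11635487), the cytoplasmic methionine enzyme, had 97.2 (rank 1054), with 53.6 in replicate 1 and 43.3 in replicate 2. Its summit at -315 bp had no other coding promoter in reach, and the narrower window did not count it.

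The next synthetase gene fell just outside the optimal list. kars-1 (chromosome II, 7070183 to 7072415), for the lysine enzyme, had a pooled signal of 72.9 (rank 1631) at -362 bp, with 34.1 in replicate 1 and 37.7 in replicate 2. The lowest optimal signal was 74.8, and the member just inside was ife-4 at 75.3. In replicate 2 alone, kars-1 had rank 1248 and was counted among the 1574 strongest calls. After it came a step down to 43.9 for nars-1 (asparagine), 43.7 for yars-2 (tyrosine), 42.1 for fars-3 (a phenylalanine enzyme subunit) and 38.3 for vars-1 (valine). The other 10 synthetase genes with a pooled call had signals from 13.6 for lars-1 to 34.6 for sars-1.

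The other 15 synthetase genes had no pooled promoter call. Of these, aars-2, cars-1, fars-1, gars-1, hars-1, iars-2, pars-1, qars-1 and rars-2 had a promoter call in at least 1 replicate, the strongest being 23.1 at aars-2 in replicate 1. dars-2, ears-1, lars-2, nars-2, rars-1 and yars-1 had none in any list. Outside the promoter window, fars-1 had a pooled call of 81.3 within the gene, above the lowest optimal signal, 74.8. Genes for enzymes of 1 amino acid could differ: ears-2 had an optimal peak while ears-1 had no call, and yars-2 had a pooled call while yars-1 had none.

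Calls were also counted as the pooled list was read from its strong end. Among the strongest 250 calls, 5 translation factor genes (13.2%) and no synthetase gene had a promoter call, beside 0.781% of all coding genes. At 500 calls there were 8 (21.1%) and 1 (3.13%), beside 1.54%, and at 787 calls, the stronger 787 optimal peaks, 9 (23.7%) and 1 (3.13%), beside 2.31%. At 3148 calls the counts were 14 (36.8%) and 3 (9.38%), beside 7.98%. At 5000 calls they were 16 (42.1%) and 7 (21.9%), beside 10.7%. The synthetase counts were thus 3 or fewer down to 3148 calls, where 1 gene changes their share strongly. Their share was about 2 times that of all genes at 500 calls, with 1 gene, and at 5000 calls, with 7. At 10000 calls 24 (63.2%) and 11 (34.4%) had one, beside 16.2%, and at 20000 calls 27 (71.1%) and 14 (43.8%), beside 23.4%. In the whole pooled list 28 factor genes (73.7%) and 17 synthetase genes (53.1%) had a call, beside 29.2% of all coding genes. A promoter call in both replicates was found at 22 factor genes and 13 synthetase genes, beside 18% of all coding genes. Among the 1574 strongest calls of 1 replicate alone, 9 factor genes and 3 synthetase genes were counted in replicate 2, beside 4.22%, and 11 and 2 in replicate 1, beside 4.59%. The pooled and replicate lists hold background as well as peaks, per the description they were deposited under.

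**Figure D3:**
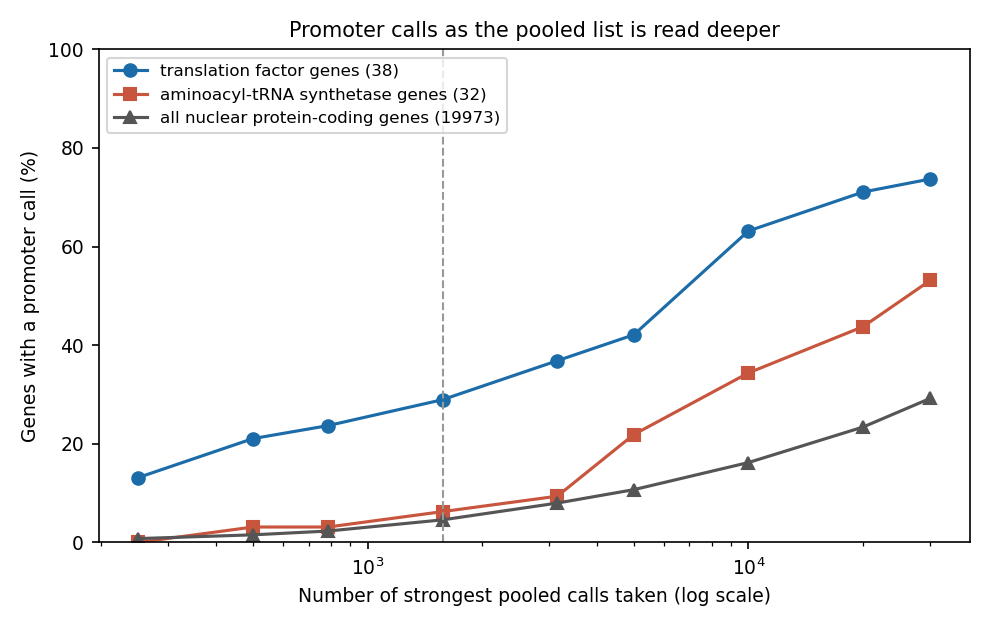
Percentage of genes with a promoter call as more of the strongest pooled calls are taken (log scale), for 38 translation factor genes (circles), 32 synthetase genes (squares) and all 19973 nuclear protein-coding genes (triangles). The dashed line marks the 1574 calls of the optimal list. The factor genes lie above the other curves throughout, ending at 73.7%, and the synthetase genes lie within 2 percentage points of all genes up to 3148 calls and reach 53.1% at the end.

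Some promoter peaks of the members were shared with a divergent neighbour. Of the 13 member peaks, 6 also lay in the promoter window of another coding gene. Over all 729 coding promoter peaks the number was 207 (28.4%). That share is per peak, while member peaks were reached gene by gene, which draws in shared peaks more readily. In all, 914 coding genes were called through the 729 peaks, so the 2 shares are not like for like. The pairs were eef-2 with clsp-1 (-265 bp), eef-1G with ctf-4 (-154 bp), eef-1B.1 with aco-2 (-346 bp), eef-1A.1 with rfc-4, eif-3.I with abtm-1 (-238 bp) and ears-2 with uncp-18. The eif-3.I summit lay -232 bp from its own 5' end and so almost midway. A noncoding RNA gene, F54H12.9, covered the eef-1B.1 summit on the opposite strand. Peaks at eif-3.B, eif-3.C, eif-3.E, iff-2, eef-1A.2, ife-4 and mars-1 lay in no other coding promoter.

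**Figure D4:**
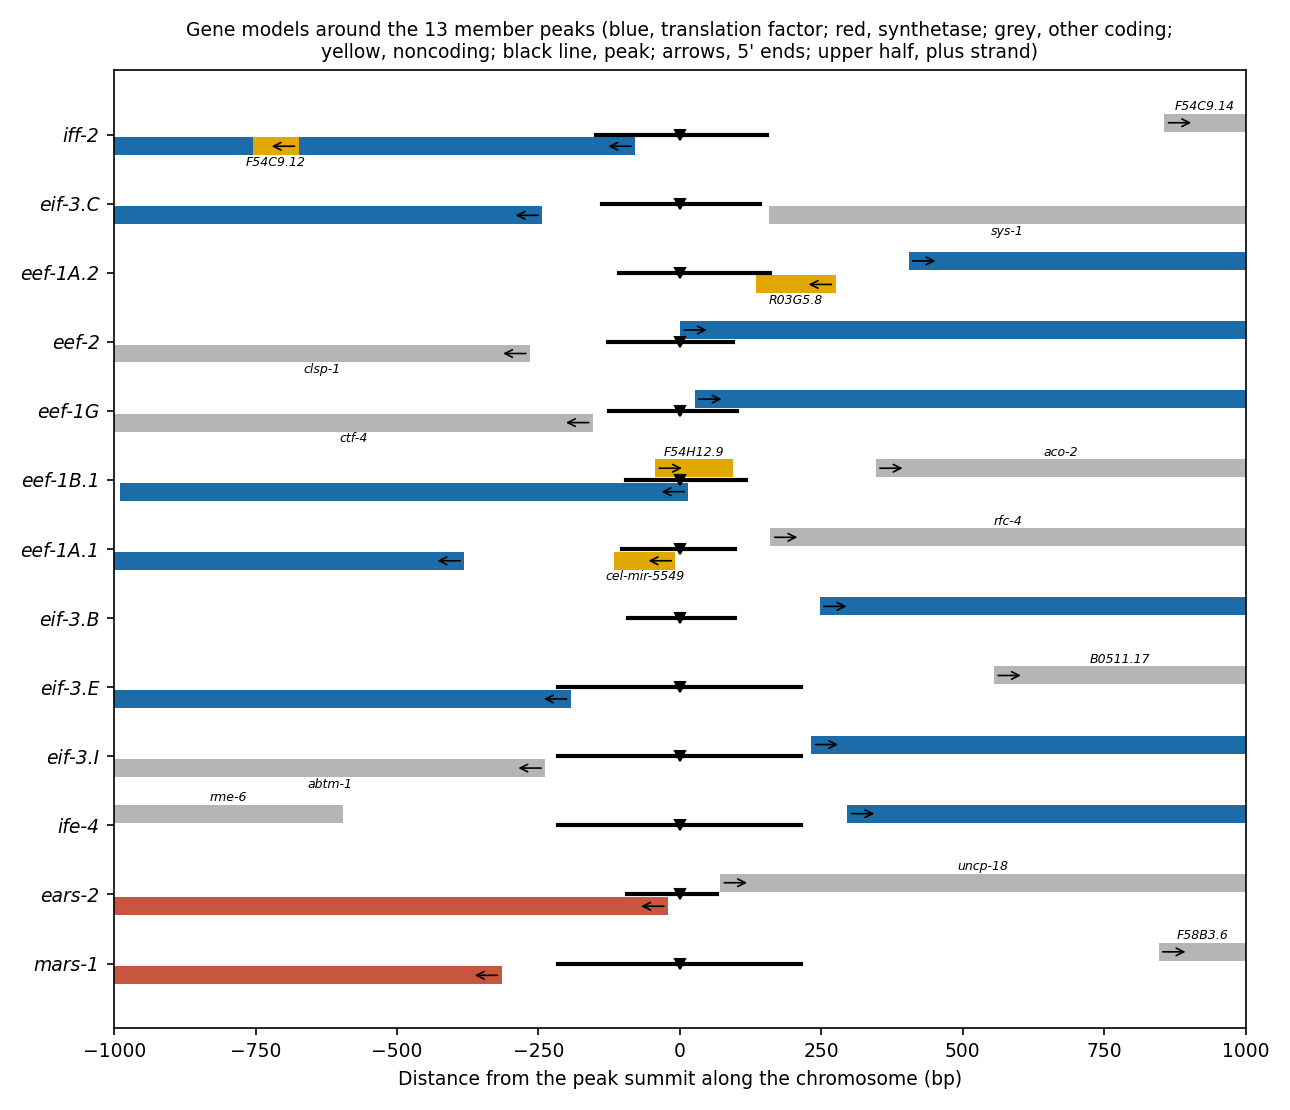
Gene models within 1000 bp of the 13 member summits, drawn along the chromosome (bp from the summit). Member genes are blue (translation factor) or red (synthetase), other coding genes grey and noncoding genes yellow, with piRNA genes left out. Black lines are peaks, triangles summits and short arrows 5' ends. The summits of eef-2 and eef-1B.1 touch their gene models, and the ears-2 summit lies between ears-2 and uncp-18.

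The members were also set against their upstream neighbour. The class of close same-strand neighbours held genes whose upstream coding neighbour ended within 500 bp of them or overlapped them. In it were 8 of 38 factor genes (21.1%) and 11 of 32 synthetase genes (34.4%), beside 20.6% of all coding genes. The neighbour overlapped the member at ife-1 and iars-2. Operon membership was not examined here. Of those 8 factor genes 1 had an optimal peak, eif-3.C behind sys-1, and of the 11 synthetase genes none, beside 2.8% of all coding genes so placed. With any pooled call the counts were 5 of 8 and 3 of 11, beside 32.6%. Of the 6 synthetase genes without a call in any list, dars-2, lars-2, nars-2, rars-1 and yars-1 were in this class, and ears-1 was not. rars-1 lay 65 bp behind the RNA polymerase gene rpb-8. Of the 6 factor genes without a call in any list, only ife-1 was in this class. The same share was not computed over all coding genes, so no pattern is read from these genes. Among genes with a divergent neighbour, 7 of 20 factor genes and 2 of 18 synthetase genes had an optimal peak, beside 7.01%, and 16 of 20 and 11 of 18 had a pooled call, beside 31.7%. Behind a same-strand neighbour farther than 500 bp away, 3 of 10 factor genes and none of 3 synthetase genes had an optimal peak, beside 2.29%, and 7 of 10 and 3 of 3 had a pooled call, beside 23.6%.

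All 13 member peaks overlapped a call in each replicate. These calls were taken because they overlapped the peak, which comes from the 2 replicates pooled. Closeness of the summits is thus partly built in, and it was not computed over all optimal peaks. The strongest overlapping call of either replicate had its summit within 35 bp of the optimal summit in every case, with medians of 10 bp in replicate 1 and 12 bp in replicate 2. All 13 had the higher signal in replicate 1, with ratios of replicate 1 to replicate 2 from 1.10 at ears-2 to 1.97 at eif-3.E and a median of 1.49. The 1571 optimal peaks called in both had a median ratio of 1.42. Replicate 1 thus had the higher values both at the members and at the median peak. Ratios were above the upper quartile of all peaks, 1.72, at eif-3.E, eif-3.I (1.93) and ife-4 (1.90), the 3 weakest factor peaks. That of ears-2 was below the lower quartile, 1.18.

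The sequence at the member summits had the base composition of other promoter peaks. Within 75 bp of the summit the GC content was 46.4% in the median member (33.8% at mars-1 to 54.3% at iff-2), against a median of 46.4% at all 729 coding promoter peaks. In windows of the same length centred 232 bp upstream of the outermost 5' end of all 19973 coding genes it was 33.8%. Of the motifs searched on both strands, GAGAGA was present in 3 of 13 member windows, eef-1A.1, eef-1A.2 and ife-4, and in 30.7% of all coding promoter peaks and 9.98% of all promoter windows. At eef-1A.1 and eef-1A.2 it lay 21 and 10 bp downstream of the summit. mars-1, whose summit at -315 bp was the next farthest upstream, did not hold it. ife-4 held it in a run of TC repeats. CTGCGTC was found on the summit of ife-4 alone among the members, in 16.2% of coding promoter peaks and 2.11% of promoter windows.

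Its shorter form CTGCGT, chosen after the windows were seen, was found at iff-2, eef-1G and ife-4, in 24.4% of coding promoter peaks and 4.17% of promoter windows, and overlaps CTGCGTC by construction. In eef-1G it occurred 2 times, once beyond the stretch shown. TATAAA was found at eif-3.B alone, in 7.27% of peaks and 19.1% of promoter windows. GGGCGG and CACGTG were in no member window, and in 9.88% and 3.98% of coding promoter peaks and in 3.34% and 2.34% of promoter windows. No searched motif was therefore common to all members.

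Translation genes that carry other names gave 5 of 28 with an optimal peak (17.9%), beside the 4.58% of all coding genes. Among the 1574 strongest calls of replicate 1 alone the count was 3 (10.7%, beside 4.59%), and among the stronger 787 optimal peaks it was 2 (7.14%, beside 2.31%). The strongest was drr-2 (chromosome III), which encodes an RNA-binding protein related to eIF4H, at 436 (rank 59), with 226 in replicate 1 and 212 in replicate 2. Its summit at -155 bp was shared with set-16 at -191 bp. clu-1, a homologue of the clustered mitochondria protein, had 117 in a peak closer to prp-40. pab-2, which encodes a poly(A)-binding protein, had 111, with 76.0 in replicate 1 and 27.0 in replicate 2, while its paralogue pab-1 had a pooled call of 40.2. abcf-3 had 99.8, with 35.0 in replicate 2 and no overlapping call in replicate 1. gfm-1, the mitochondrial elongation factor G gene, had 79.3. Those without an optimal peak included the release factor gene erfa-3 with a pooled call of 59.0, the kinase regulator gene gcn-1 with 53.9 and the ribosomal scaffold gene rack-1 with 43.9. The eIF4G gene ifg-1 had no promoter call in any list, and the eIF4A gene inf-1 had 1 only in replicate 1.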

How the data were processed

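ChIP-seq of tagged ROW-1 was deposited as peak lists in narrowPeak layout on ce10 and ce11, per the deposited file listing. The ce11 lists were used: 1 for each replicate, a pooled list and an optimal list past an IDR (irreproducible discovery rate) threshold. The authors deposited a signal for each peak. By the narrowPeak layout a further deposited column is a −log10 q-value, which the files do not state; it is tied at 3.02 in all optimal peaks and was not used for ranking. The sources used here name no aligner, caller, version or IDR threshold. Gene models were Ensembl release 115 (WBcel235), protein names and genome sequence RefSeq of the same assembly. The strongest replicate call overlapping a peak by 1 bp gave replicate signals in member peaks, and otherwise the strongest call in the promoter. Of 33 further translation symbols, 28 were found. The members, lists and motifs were chosen with earlier results of these data known. Named were all members with an optimal peak, the 5 strongest others of each group, members without a pooled call, and partners in a complex; further members are given as ranges or where a class is described. Assignment of summits was tested on simulated data. Python 3.11.15 and pandas 2.3.3 were used.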

Additional observations from a re-analysis of the deposited data

How the results depend on the processing

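Of the 13 members with an optimal peak, 8 were counted under all 9 alternatives, and 5 other members were counted in at least 1 alternative. The translation factor count stayed within 1.5 times of 11 under each, while the share of all coding genes also changed. It was 8 with a window 250 bp before to 100 bp after the 5' end, beside 2.83% of all coding genes. With the 3148 strongest pooled calls it was 14, beside 7.98%. It was 9 without replicate 1 (beside 4.22%) and 11 without replicate 2 (beside 4.59%). The synthetase count of 2 was 1 in that narrower window (beside 2.83% of all coding genes) and 1 with the 787 strongest peaks (beside 2.31%), and 2 to 3 with 1 replicate left out. Their pooled count of 17 was 9 in the narrower window, beside 19.2% of all coding genes. The count of other translation genes, 5, was 2 with the 787 strongest peaks, and 3 to 4 with 1 replicate left out, being 3 without replicate 2 (beside 4.59%) and 4 without replicate 1 (beside 4.22%). The alternatives for the pooled counts were chosen after seeing the data. With a synthetase count of 2, the loss of 1 gene is a change of over 1.5 times. No paired analysis was possible because the series has 1 group. Without read counts or a control library, the limit of detection at genes without a call is unknown.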
